A study of Mus musculus with 9 samples.

Results

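In bone marrow-derived macrophages, 58 autosomal genes that LPS left near their untreated level in Control cells stood at 0.0388 to 0.396 times the Control level in SRF-KO cells given LPS. They include all 3 chains of complement C1q, the gamma-actin gene Actg1, the actin-binding gene Lima1, and the macrophage genes Aif1, Ms4a7, Folr2 and Mpeg1. Of the 11560 genes with enough counts to be tested, among 22524 listed, 2712 were autosomal, had at least 10 CPM in Control cells with LPS and had a ratio of Control with LPS to untreated Control between 0.8 and 1/0.8. The 58 genes were chosen from these 2712 because their mean in SRF-KO with LPS was at most 0.4 times that in Control with LPS. CPM is a gene's count per 1e+06 counts of its library, with library sizes adjusted by edgeR's TMM factors, and each mean is over the 3 libraries of a group. Both comparisons were therefore used in the choice, and the levels of the 58 genes are given as a description with no test. All 58 are protein coding.

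The study has 9 RNA sequencing libraries of primary macrophages grown for 7 days from C57BL/6 bone marrow. They form 3 groups of 3, namely SRF-KO cells given lipopolysaccharide (LPS) for 6 h, Control cells given LPS for 6 h, and untreated Control cells. The labels give the Control cells as wild type, and the study's design asks what LPS does and what part SRF plays. LPS comes from the wall of Gram-negative bacteria and activates macrophages. The sources used here do not give how the SRF allele was removed, the LPS dose or whether replicates came from separate animals. Untreated SRF-KO cells were not analysed here, so it cannot be told apart whether a gene is lower in SRF-KO cells before LPS or only with it.

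Serum response factor (SRF) is a transcription factor that binds a short sequence called the CArG box. It is known to drive genes of the actin cytoskeleton with MRTF coactivators, and immediate-early genes with TCF cofactors. Macrophages use the actin cytoskeleton to move and to engulf particles, and they are a main source of C1q, which opens the classical complement pathway and tags dying cells for uptake.

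Srf itself (ENSMUSG00000015605) had 34, 24 and 12 counts in the libraries labelled SRF-KO, 738, 799 and 900 in Control with LPS and 810, 975 and 884 in untreated Control. Library totals ranged from 16987011 to 24912173 counts in SRF-KO with LPS, from 15321839 to 19009123 in Control with LPS and from 15867737 to 17606538 in untreated Control. The 58 genes took 1.23% to 1.27% of all counts in SRF-KO with LPS, 3.20% to 3.26% in Control with LPS and 4.76% to 4.93% in untreated Control. All 26 counted macrophage identity markers were tested, and they summed to 30206 to 30639 CPM in SRF-KO with LPS, 34888 to 35644 CPM in Control with LPS and 26282 to 27019 CPM in untreated Control. Csf1r, Adgre1, Lyz2 and Itgam each had at least 68668 counts over the 3 libraries of any group. Adgre1 was lower in SRF-KO all the same, at 1701 CPM against 3689 CPM in Control with LPS. Other markers went both ways. Over 3 libraries each, Fcgr1 had 5567 counts in SRF-KO with LPS and 78503 in Control with LPS, Ccr2 had 1221 and 3150, and Mertk had 287 and 933. The module gene Aif1 had 733 and 7872. Higher in SRF-KO were Cd14 with 351254 and 135115, Lyz2 with 808377 and 377773, and Csf1r with 192446 and 96625. These are raw counts, not scaled for library size. TMM factors were near 1.04 in SRF-KO with LPS and 0.81 in Control with LPS, so scaled library sizes were larger in SRF-KO. Ratios of these raw counts therefore overstate rises and understate falls relative to CPM. Of the 23 markers that are no members, 15 were called lower and 8 higher. Of the Y-linked genes, Uty, Ddx3y, Kdm5d and Eif2s3y had 0, 1, 1 and 4 counts over the SRF-KO libraries and 942, 2082, 806 and 2161 over Control with LPS, so sex and genotype cannot be told apart in any SRF-KO comparison here. With X and Y genes allowed, Tmsb4x, Kdm5d, Uty and Ddx3y would join, making 62.

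The word flat holds for TMM scaling. With library totals alone, the median log2 fold change of all tested genes with LPS was -0.57 and that of the 58 genes -0.55, and all 58 lay below 0. The rule then found 48 genes, of which 1, Tnfrsf11a, is among the 58. With median-ratio size factors it found 59 genes, which include all 58. In SRF-KO, all 58 were lower under each scaling, with a median log2 fold change of -1.68 by TMM and -1.32 by library totals. Over all tested genes these medians were 0.01 and 0.37. The rule used this comparison, so the values of the 58 are a description.

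**Figure D1:**
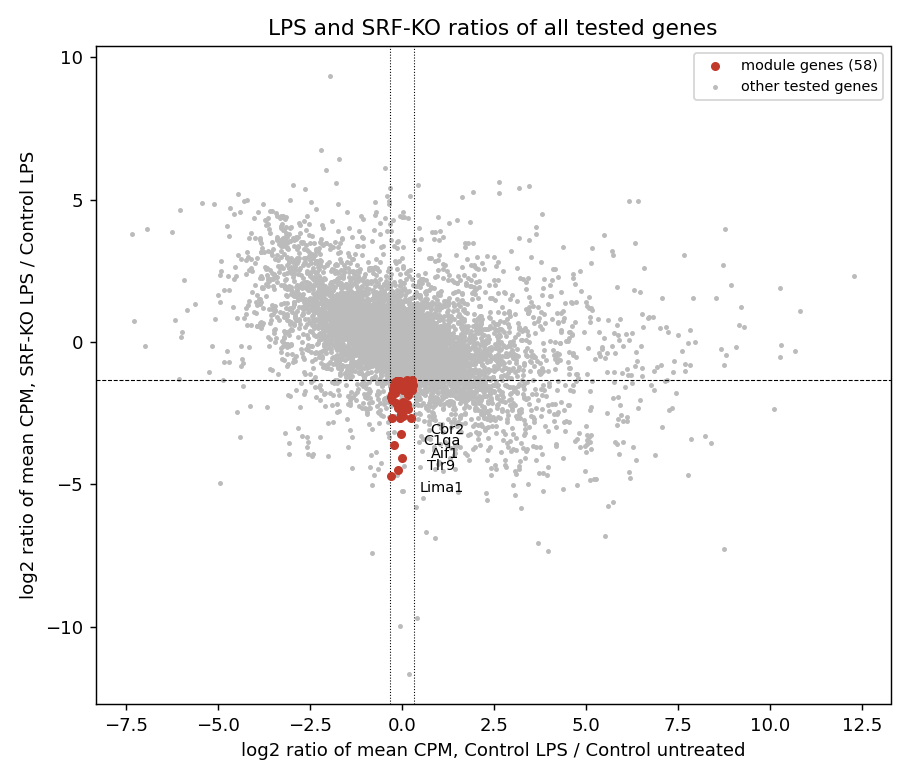
Each point is 1 of 11493 tested genes with a level above 0 in each group, placed by the log2 ratio of mean CPM of Control with LPS to untreated Control (horizontal) and of SRF-KO with LPS to Control with LPS (vertical), and red points are the 58 module genes. Dotted lines mark the flat range, the dashed line marks a ratio of 0.4, and both axes use the Control with LPS libraries.

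Among genes at 10 CPM or more in Control with LPS, a ratio of SRF-KO to Control of at most 0.4 was found for 58 of 2712 flat genes (2.14%), 532 of 3037 genes above the flat range (17.5%) and 62 of 1764 genes below it (3.51%). These shares are a description, since both ratios use the same Control with LPS libraries. Ratios of SRF-KO to Control of at least 2.5 were found for 22 flat genes. The members just inside the threshold were Rap2b, Plxnb2, Acer3 and Tbc1d1 with ratios of 0.389, 0.390, 0.394 and 0.396. Just outside it stood Evi2, Bcl2l1, Scand1 and Arhgap25 with ratios of 0.403, 0.404, 0.406 and 0.407.

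The rule used no sequence, and promoter windows are shown for the members that hold a CArG box, the motif SRF binds. RefSeq promoter windows (GRCm38.p6, 250 bases before to 50 bases after an annotated start) were found for 48 of the 58 genes, with 67 windows in all because some genes have several starts. A consensus CArG box, read on both strands with no mismatch, was present in 6 of these 48 genes (12.5%), against 33 of 2176 other flat genes (1.52%) and 136 of 9117 tested genes (1.49%), and in 1.63% of all 32851 windows counted singly. The 6 genes are Lima1, Cbr2, Actg1, Nr2f6, Mpeg1 and Sema4d. The window of each is given 5′ to 3′, with capitals marking the CArG box.
Lima1 (chr15:99820100-99820399, minus strand): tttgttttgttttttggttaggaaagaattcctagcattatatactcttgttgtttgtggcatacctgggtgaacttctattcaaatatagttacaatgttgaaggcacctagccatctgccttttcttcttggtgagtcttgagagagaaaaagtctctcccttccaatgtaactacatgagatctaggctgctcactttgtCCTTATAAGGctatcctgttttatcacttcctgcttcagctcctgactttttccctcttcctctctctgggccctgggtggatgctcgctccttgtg
Cbr2 (chr11:120731972-120732271, minus strand): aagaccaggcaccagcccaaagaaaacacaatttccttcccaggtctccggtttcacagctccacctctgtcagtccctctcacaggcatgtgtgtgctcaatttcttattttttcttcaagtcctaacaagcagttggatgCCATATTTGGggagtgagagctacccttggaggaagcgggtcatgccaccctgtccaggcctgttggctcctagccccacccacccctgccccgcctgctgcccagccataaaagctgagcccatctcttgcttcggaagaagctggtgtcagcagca
Actg1 (chr11:120348446-120348745, minus strand): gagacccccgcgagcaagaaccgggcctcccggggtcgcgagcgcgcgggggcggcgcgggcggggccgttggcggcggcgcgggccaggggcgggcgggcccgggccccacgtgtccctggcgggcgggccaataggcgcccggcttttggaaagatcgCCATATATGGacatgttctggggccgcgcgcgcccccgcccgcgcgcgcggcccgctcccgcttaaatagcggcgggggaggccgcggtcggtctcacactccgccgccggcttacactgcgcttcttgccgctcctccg
Nr2f6 (chr8:71381903-71382202, minus strand): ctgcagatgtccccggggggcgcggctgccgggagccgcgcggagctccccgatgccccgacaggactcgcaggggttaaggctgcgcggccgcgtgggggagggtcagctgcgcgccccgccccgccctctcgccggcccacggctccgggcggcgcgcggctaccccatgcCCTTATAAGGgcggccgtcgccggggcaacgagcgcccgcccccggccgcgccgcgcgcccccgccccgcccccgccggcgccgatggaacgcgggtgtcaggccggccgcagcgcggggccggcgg
Mpeg1 (chr19:12460520-12460819, plus strand): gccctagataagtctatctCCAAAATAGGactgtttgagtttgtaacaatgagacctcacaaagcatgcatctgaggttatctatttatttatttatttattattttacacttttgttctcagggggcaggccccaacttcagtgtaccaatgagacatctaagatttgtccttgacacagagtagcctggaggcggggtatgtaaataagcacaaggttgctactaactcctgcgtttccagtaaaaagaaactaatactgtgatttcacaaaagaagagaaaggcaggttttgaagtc
Sema4d (chr13:51748761-51749060, minus strand): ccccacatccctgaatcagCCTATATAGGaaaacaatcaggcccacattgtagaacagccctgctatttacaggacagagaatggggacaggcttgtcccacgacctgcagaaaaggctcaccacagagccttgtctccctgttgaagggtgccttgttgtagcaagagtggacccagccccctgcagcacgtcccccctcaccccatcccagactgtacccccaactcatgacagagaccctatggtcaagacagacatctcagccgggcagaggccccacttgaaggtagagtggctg
The Lima1 and Nr2f6 boxes have the same letters, CCTTATAAGG, and the Actg1 box reads CCATATATGG. Counted from 1 at the 5′ end of the window, the start site is preceded by 250 bases, and the boxes begin at base 204 in Lima1, 143 in Cbr2, 161 in Actg1, 174 in Nr2f6, and 20 in both Mpeg1 and Sema4d. The Lima1 and Sema4d windows lie inside the longer gene spans of the GENCODE annotation, at alternative starts. A match of letters is no evidence of binding, and no match says only that these letters are not in this window.

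Other motifs were searched on both strands in the same windows. TGACTCA, the AP-1 motif, was in 7 of 48 members (14.6%) against 4.09% of other flat genes and 4.79% of tested genes, namely in Tlr9, Frmd4b, Ms4a14, Folr2, Cd244a, Phyhd1 and Acer3. None of these 7 had a CArG box. GAGGAAG, a PU.1 motif, was in 12.5% of members and 16.3% of tested genes. An interferon response motif was in 4.17% of members and 4.11% of tested genes, and GGAATG, a TEAD motif, in 12.5% and 13.8%. The median GC content of the windows was 60.7% in members and 61.0% in other flat genes. No test was made of these shares.

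Of the 58 genes, 4 were at or below 0.1 times the Control level (Lima1, Tlr9, Aif1 and C1qa), 12 at or below 0.2, 15 between 0.2 and 0.3 and 31 above 0.3, with a median of 0.314 against 1.01 over all tested genes. In all 58, every SRF-KO library lay below every Control library with LPS, and below every untreated Control library. Over all tested genes, 38.3% were lower in this way in SRF-KO than in Control with LPS, and 78% did not overlap in either direction. At an adjusted p below 0.05, 77% of tested genes were called in this comparison. Nothing is read from these shares, since the rule used the comparison. In bulk libraries, fewer cells of a type and less RNA per cell cannot be told apart. The ratio of SRF-KO with LPS to untreated Control ran from 0.0313 to 0.476 with a median of 0.307.

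**Figure D2:**
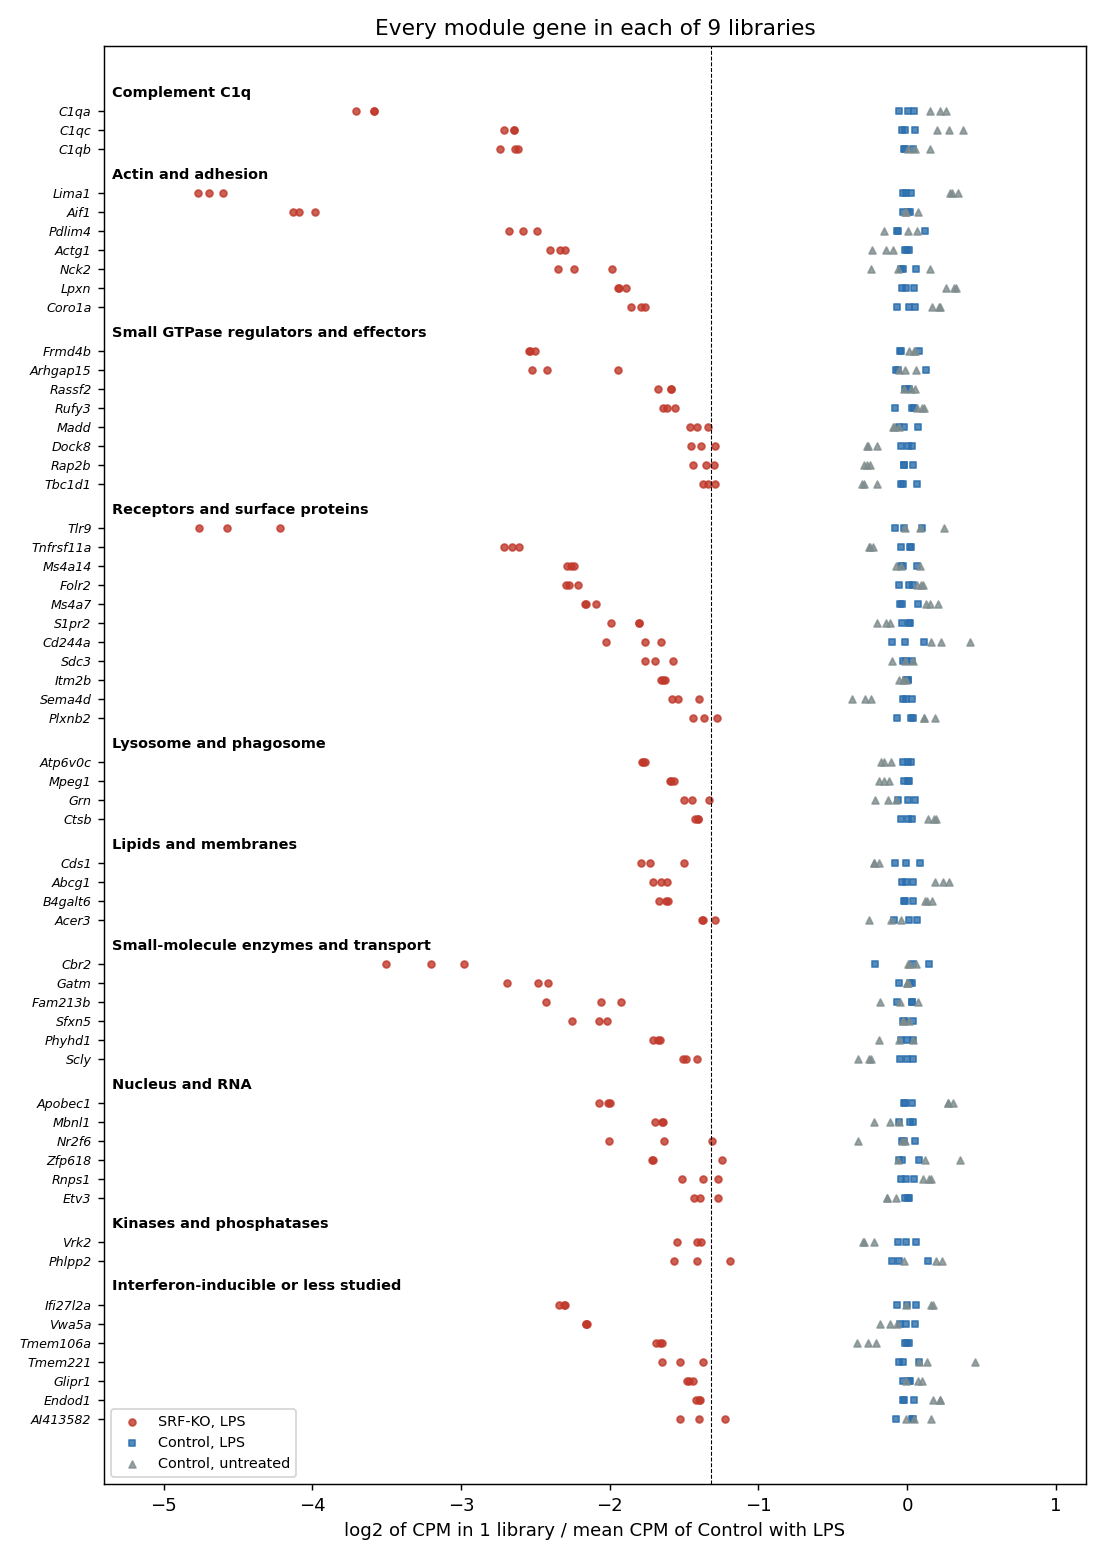
Each row is 1 of the 58 module genes, grouped by known role, and each point is 1 library, placed by the log2 of its CPM over the mean CPM of Control with LPS. The dashed line marks a ratio of 0.4, the limit for group means, so single libraries may cross it. SRF-KO libraries (red circles) lie left of all Control libraries in each row, while Control with LPS (blue squares) and untreated Control (grey triangles) lie close together.

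The 3 genes of C1q, the recognition molecule of the classical complement pathway, were among the lowest. C1qa (ENSMUSG00000036887, chromosome 4, 136895917 to 136898803, minus strand) had 127, 117 and 127 CPM in SRF-KO with LPS, 1583, 1472 and 1532 CPM in Control with LPS and 1699, 1780.4 and 1837 CPM in untreated Control. The SRF-KO libraries lay far below both Control groups, 12.3-fold below the mean of Control with LPS. C1qb had 439, 404 and 432 CPM in SRF-KO with LPS, 2765, 2662 and 2648 CPM in Control with LPS and 2706, 2794 and 3001 CPM in untreated Control. Its neighbour C1qc had 312, 297 and 311 CPM in SRF-KO with LPS, 2016, 1898 and 1923 CPM in Control with LPS and 2234, 2368 and 2521 CPM in untreated Control. C1qb and C1qc were lower by 6.33-fold and 6.34-fold, and their chains join with that of C1qa in 1 hexameric protein. Per kb of exon, C1qb, C1qa and C1qc had 2474, 1471 and 1008 CPM per kb in Control with LPS, against a median of 21.9 CPM per kb over the module and 9.36 over other flat genes. The trio lies within 18.7 kb of chromosome 4 (136880129 to 136898803), and no other counted gene lies between them.

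Actin-binding and adhesion genes made up a second set of 7 members with ratios of 0.0388 to 0.287. Lima1 (ENSMUSG00000023022), which encodes EPLIN, a LIM protein that cross-links actin filaments, had the smallest ratio of the module. It had 1.53, 1.43 and 1.36 CPM in SRF-KO with LPS, 37.9, 37.0 and 36.5 CPM in Control with LPS and 47.1, 45.3 and 45.9 CPM in untreated Control. All 3 SRF-KO libraries were far lower, 25.7-fold below Control with LPS, and Control with LPS lay below untreated Control at 0.805 times its level, near the edge of the flat range. Aif1, which encodes IBA1, a calcium-binding protein that bundles actin in macrophages, had 10.6, 11.8 and 10.9 CPM in SRF-KO with LPS, 187, 188 and 183 CPM in Control with LPS and 184, 196 and 185 CPM in untreated Control. Here the Control groups overlapped, and SRF-KO was lower by 16.7-fold. Actg1, the gene of cytoplasmic gamma-actin, had 182, 174 and 187 CPM in SRF-KO with LPS, 925, 910.4 and 919 CPM in Control with LPS and 779.6, 859 and 832 CPM in untreated Control. SRF-KO was 5.08-fold lower, and reads of actin genes can be shared with Actb and with processed copies. Coro1a, the gene of coronin-1A, a leukocyte actin regulator, had 125, 119 and 128 CPM in SRF-KO with LPS, 437, 413 and 449 CPM in Control with LPS and 488, 505 and 503 CPM in untreated Control. It was 3.49-fold lower in SRF-KO. The other 3 were Pdlim4, a PDZ-LIM protein of actin fibres (5.99-fold lower), Nck2, an adaptor that links tyrosine kinases to actin (4.54-fold), and Lpxn, a leupaxin gene of the paxillin family (3.79-fold).

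**Figure D3:**
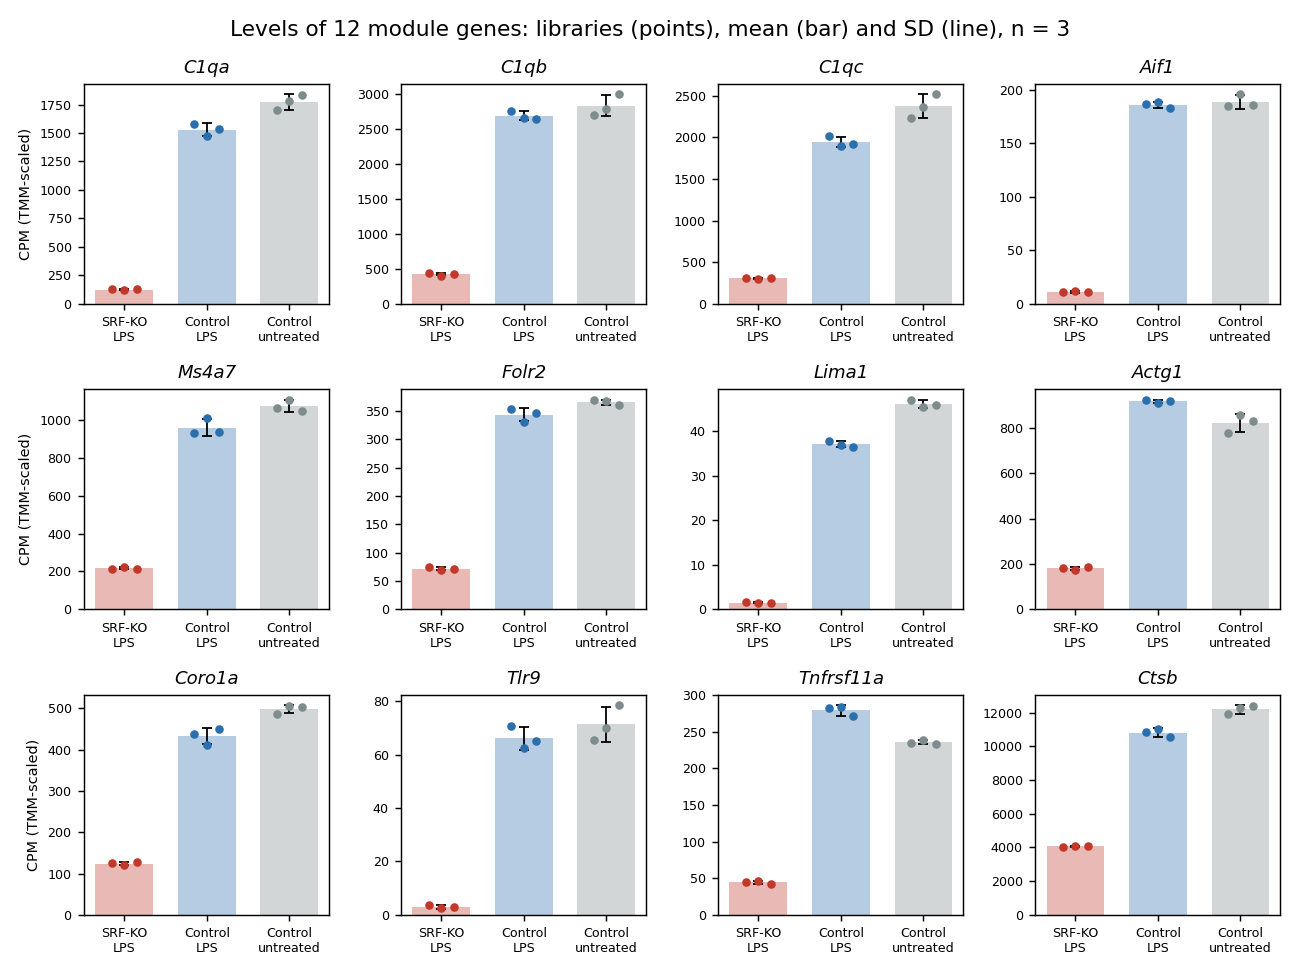
Bars show mean CPM of 12 module genes in SRF-KO with LPS, Control with LPS and untreated Control, with the SD as a line and the 3 libraries as points. In every panel the 3 SRF-KO points lie below all 6 Control points.

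Regulators and effectors of small GTPases had 8 members, with ratios of 0.174 to 0.396. Frmd4b, a scaffold that binds the cytohesin exchange factors of Arf GTPases, had 24.3 ± 0.358 CPM in SRF-KO with LPS, 139.7 ± 6.93 CPM in Control with LPS and 143 ± 2.11 CPM in untreated Control. Arhgap15, which switches off Rac, had 4.02 ± 0.897 CPM in SRF-KO with LPS, 19.4 ± 1.58 CPM in Control with LPS and 19.4 ± 0.794 CPM in untreated Control. Dock8, an exchange factor for Cdc42 that leukocytes need to migrate, had 187 ± 10.5 CPM in SRF-KO with LPS, 484 ± 12.6 CPM in Control with LPS and 409 ± 10.8 CPM in untreated Control. These errors are SDs over 3 libraries, as for all values written with ±. The SRF-KO level was 5.76-fold lower for Frmd4b, 4.84-fold for Arhgap15 and 2.59-fold for Dock8. The other 5 were Rassf2, a Ras association protein, Rufy3, a RUN and FYVE domain protein, Madd, an exchange factor for Rab proteins, Rap2b, a Ras-family GTPase, and Tbc1d1, a Rab GTPase-activating protein, all with ratios between 0.326 and 0.396.

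Receptors and other surface or membrane proteins were the largest set, with 11 members. Tlr9, the endosomal receptor for unmethylated CpG DNA, had 3.56, 2.44 and 2.78 CPM in SRF-KO with LPS, 70.8, 62.4 and 65.0 CPM in Control with LPS and 65.4, 70.1 and 78.5 CPM in untreated Control. It was 22.6-fold lower in SRF-KO, and its Control groups overlapped. Tnfrsf11a encodes RANK, the receptor through which RANKL drives osteoclast formation, and had 44.3, 45.7 and 42.6 CPM in SRF-KO with LPS, 283, 284 and 271 CPM in Control with LPS and 235, 239 and 234 CPM in untreated Control. Its SRF-KO level was 6.32-fold lower, and Control with LPS lay above untreated Control. Folr2, folate receptor beta, which marks resident macrophages, had 74.2, 70.0 and 71.1 CPM in SRF-KO with LPS, 354, 331 and 346 CPM in Control with LPS and 369, 367 and 361 CPM in untreated Control, 4.79-fold lower in SRF-KO. S1pr2, a receptor for sphingosine 1-phosphate, had 51.2 ± 3.77 CPM in SRF-KO with LPS, 186 ± 3.95 CPM in Control with LPS and 167 ± 5.18 CPM in untreated Control. Cd244a, an immune receptor of the SLAM family, was 3.49-fold lower in SRF-KO. Sdc3, the heparan sulphate proteoglycan syndecan-3, had 647 ± 43.7 CPM in SRF-KO with LPS, 2065 ± 46.0 CPM in Control with LPS and 2033 ± 101 CPM in untreated Control, and Itm2b, a transmembrane protein also called BRI2, had 612 ± 5.72 CPM in SRF-KO with LPS, 1911 ± 11.1 CPM in Control with LPS and 1875 ± 30.0 CPM in untreated Control. Both were lower by about the same amount, 3.19-fold for Sdc3 and 3.12-fold for Itm2b. Plexin-B2 and a B-type plexin ligand were both present in the module. Plxnb2, the receptor, had 322 ± 18.3 CPM in SRF-KO with LPS, 825 ± 33.3 CPM in Control with LPS and 909 ± 27.6 CPM in untreated Control, and Sema4d, a semaphorin that binds B-type plexins, had 257 ± 17.3 CPM in SRF-KO with LPS, 731 ± 15.5 CPM in Control with LPS and 595 ± 27.0 CPM in untreated Control. Sema4d had the highest ratio of Control with LPS to untreated Control of the module, 1.23.

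Ms4a7 and Ms4a14, which encode 4-pass membrane proteins of myeloid cells, lie side by side on chromosome 19. Ms4a7 had 214, 225 and 214 CPM in SRF-KO with LPS, 929, 1010.0 and 938 CPM in Control with LPS and 1066, 1108 and 1046 CPM in untreated Control, and Ms4a14 had 31.4, 32.0 and 32.4 CPM in SRF-KO with LPS, 150.2, 160.4 and 149 CPM in Control with LPS and 163, 145 and 149 CPM in untreated Control. Both were lower in SRF-KO, by 4.41-fold and 4.79-fold, while the Control groups overlapped for Ms4a14 and Control with LPS lay slightly below untreated Control for Ms4a7. Mpeg1 and Lpxn lie on the same stretch, so 4 of the 58 members fall within 1533 kb (11301249 to 12833807). Of the other tested genes of the stretch, the 6 named Ms4a that are no members, Ms4a4a, Ms4a4b, Ms4a4c, Ms4a6b, Ms4a6c and Ms4a6d, all fell in SRF-KO by edgeR's quasi-likelihood test, with log2 fold changes of -4.61 to -1.58, against 37.9% of all tested genes called lower. They were not flat, since Control with LPS was at least 3.00 times untreated Control for each. Mean levels in SRF-KO with LPS were above untreated Control for Ms4a6d (524 against 368 CPM) and about equal for Ms4a4a (30.0 against 29.6 CPM). For Ms4a4b, Ms4a4c, Ms4a6b and Ms4a6c they were below it. Ms4a4c fell most, to 67.3 CPM in SRF-KO with LPS, against 1650 CPM in Control with LPS (log2 fold change -4.61, SE 0.0520, adjusted p = 4.61e-41 by edgeR). The predicted gene Gm8369, among them, also fell (log2 fold change -2.30), as did Stx3 (-0.54). In the rest of the stretch Dtx4 rose by 2.81, Fam111a by 0.76 and Osbp by 0.47, while Mrpl16, Patl1, Cntf and Zfp91 did not pass (log2 fold changes 0.15, -0.02, 0.82 and 0.06). With library totals Stx3 was not called (-0.19), while Mrpl16, Patl1, Cntf and Zfp91 were all called higher (0.50, 0.33, 1.17 and 0.41). Cntf was also called without replicate 1 of Control with LPS (1.17) or replicate 3 of SRF-KO (1.06), and Zfp91 without replicate 2 of Control with LPS (0.12). Reads of related Ms4a genes may be shared.

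**Figure D4:**
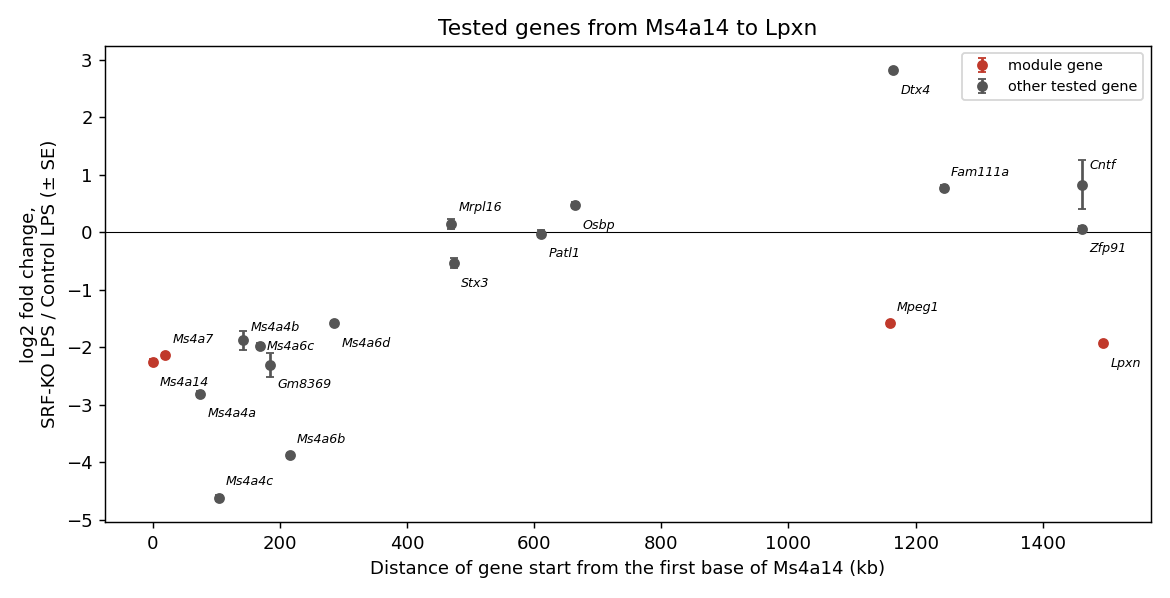
Points are the 19 tested genes of the stretch, placed by the distance of the gene's first base from that of Ms4a14 in kb (horizontal) and by the log2 fold change of SRF-KO with LPS over Control with LPS with its SE (vertical). The Ms4a genes on the left all lie below 0, and genes above 0 such as Dtx4 lie between the module genes Mpeg1 and Lpxn.

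Lysosome and phagosome genes gave 4 members with high levels. Ctsb, the protease cathepsin B, had 4015, 4085 and 4086 CPM in SRF-KO with LPS, 10854, 11047 and 10533 CPM in Control with LPS and 11893, 12277 and 12388 CPM in untreated Control. Grn, the precursor of the granulins that lysosomes need, had 1818, 1616 and 1679 CPM in SRF-KO with LPS, 4746, 4396 and 4601 CPM in Control with LPS and 3938, 4185 and 4349 CPM in untreated Control. Mpeg1, the pore-forming perforin-2 of phagosomes, had 1250.4, 1241 and 1269 CPM in SRF-KO with LPS, 3792, 3769 and 3699 CPM in Control with LPS and 3446, 3287 and 3365 CPM in untreated Control. For these 3 genes all SRF-KO libraries lay far below both Control groups, at 0.334 to 0.376 times Control with LPS. Atp6v0c, the ring subunit of the proton pump that acidifies lysosomes, had 66.5 ± 0.555 CPM in SRF-KO with LPS, 228 ± 4.05 CPM in Control with LPS and 206 ± 4.90 CPM in untreated Control.

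Lipid genes also gave 4 members. Abcg1, which exports cholesterol to lipoproteins, had 18.4 ± 0.595 CPM in SRF-KO with LPS, 58.0 ± 1.43 CPM in Control with LPS and 68.4 ± 2.32 CPM in untreated Control. B4galt6, which makes lactosylceramide, had 50.6 ± 1.12 CPM in SRF-KO with LPS, 157 ± 3.75 CPM in Control with LPS and 173 ± 3.18 CPM in untreated Control. Acer3, an alkaline ceramidase, and Cds1, which makes CDP-diacylglycerol for phosphoinositides, were 2.54-fold and 3.18-fold lower.

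Enzymes and carriers of small molecules were 6 members. Cbr2, a carbonyl reductase, had 2.51 ± 0.449 CPM in SRF-KO with LPS, 23.3 ± 2.93 CPM in Control with LPS and 23.7 ± 0.499 CPM in untreated Control, and its Control groups overlapped. Gatm, which makes the precursor of creatine, had 48.5, 50.9 and 42.0 CPM in SRF-KO with LPS, 260.4, 277 and 275 CPM in Control with LPS and 271, 271 and 272 CPM in untreated Control. These genes were 9.28-fold and 5.75-fold lower, and the mean of Gatm in Control with LPS was 0.998 times that of untreated Control. Fam213b, a prostamide and prostaglandin F synthase, Sfxn5, a mitochondrial sideroflexin, Phyhd1, a dioxygenase, and Scly, which recycles selenium from selenocysteine, had ratios of 0.230, 0.231, 0.312 and 0.362.

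Nuclear and RNA-related genes had ratios of 0.245 to 0.389. Apobec1, a cytidine deaminase that edits RNA, was 4.08-fold lower in SRF-KO. Mbnl1, a splicing regulator, had 92.0 ± 1.79 CPM in SRF-KO with LPS, 291 ± 9.66 CPM in Control with LPS and 266 ± 15.7 CPM in untreated Control. Rnps1, which marks spliced RNA, Etv3, an ETS family repressor, Nr2f6, an orphan nuclear receptor, and Zfp618, a zinc finger protein, were 2.57-fold to 3.08-fold lower. Vrk2, a kinase, and Phlpp2, a phosphatase of AKT, had ratios of 0.367 and 0.384. Ifi27l2a, an interferon-inducible gene elsewhere, was flat here, with 106 ± 1.67 CPM in SRF-KO with LPS, 529 ± 23.5 CPM in Control with LPS and 571 ± 39.7 CPM in untreated Control. Vwa5a, Tmem106a, Tmem221, Glipr1, Endod1 and AI413582, whose roles are less studied, had ratios of 0.224 to 0.385.

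Within the Control cells the rule itself kept the 58 genes near their untreated level. The ratio of Control with LPS to untreated Control ran from 0.805 (Lima1) to 1.23 (Sema4d) with a median of 0.999, and 29 genes lay on each side of 1. The groups overlapped for 25 members, and Control with LPS lay wholly above for 16 and wholly below for 17. With LPS, 18 members were called higher and 17 lower. Of all tested genes 82.1% did not overlap and 81.7% were called in this comparison. Nothing is read from these counts, since the rule used the comparison. Replicates agreed closely. The coefficient of variation over 3 libraries had a median of 4.39% in SRF-KO with LPS, 3.28% in Control with LPS and 3.26% in untreated Control, against 4.01%, 4.10% and 4.18% in the other flat genes. The largest, 23.8%, was that of Nr2f6 in SRF-KO with LPS, at 3.48 ± 0.828 CPM in SRF-KO with LPS, 10.7 ± 0.348 CPM in Control with LPS and 9.88 ± 1.17 CPM in untreated Control.

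Genes that share these roles but are no members were tested in SRF-KO with LPS against Control with LPS by quasi-likelihood in edgeR, with p-values adjusted over all 11560 genes. Of all tested genes 37.9% were called lower and 39.1% higher, with a median log2 fold change of 0.01. Genes said below to have fallen or risen were called lower or higher than in Control with LPS, whatever their untreated level.

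Of 32 other tested genes linked to SRF and the actin cytoskeleton, 20 fell and 9 rose in SRF-KO (median log2 fold change -0.56). Actb, beta-actin, fell to 1404 ± 34.9 CPM in SRF-KO with LPS, against 11387 ± 286 CPM in Control with LPS, a log2 fold change of -3.02. Zyx, the adhesion protein zyxin, and Cnn2, a calponin, had log2 fold changes of -2.08 and -5.20. Actb, Zyx and Cnn2 were not flat, since their Control level with LPS was at least 2.06 times the untreated level. Of 58 other genes of actin assembly and bundling, 41 fell and 11 rose (median -0.46), with log2 fold changes of -2.97, -3.41 and -2.32 for Marcksl1, Fscn1 and Evl. Marcksl1, Fscn1 and Evl were not flat either, since each was higher in Control with LPS than in untreated Control. In SRF-KO with LPS, Marcksl1 (157.2 against 67.64 CPM) and Fscn1 (12.02 against 0.551 CPM) stood above untreated Control. Evl stood below it (41.97 against 65.57 CPM). With library totals the actin cytoskeleton list had 17 fallen and 14 risen, and actin assembly 30 and 23.

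Complement and efferocytosis genes outside the module fell in 18 and rose in 5 of 25 cases (median -0.76). C3ar1, the receptor for complement C3a, fell to 334 ± 12.5 CPM in SRF-KO with LPS, against 2300.3 ± 68.7 CPM in Control with LPS. Cfb, complement factor B, fell to 164 CPM in SRF-KO with LPS, against 749 CPM in Control with LPS. Its untreated level was 32.6 CPM, so Cfb in SRF-KO stood above untreated Control. Gas6, a ligand that bridges dying cells to TAM receptors, fell with a log2 fold change of -3.99. C3ar1 and Gas6 in SRF-KO lay below their untreated levels of 1514 and 230 CPM. With library totals, 14 of the 25 fell and 9 rose. Of 23 other macrophage identity genes 15 fell and 8 rose (median -0.64). Fcgr1, the high-affinity IgG receptor, and Maf, a macrophage transcription factor, had log2 fold changes of -4.46 and -2.31. Chemoattractant and purinergic receptors fell in 25 and rose in 7 of 32 cases (median -1.38), with a log2 fold change of -1.75 for P2rx4.

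Of 39 other lysosome genes 26 fell and 7 rose (median -0.36), but 16 fell and 17 rose with library totals. Lgmn, the protease legumain, Ctsc and Npc2 had log2 fold changes of -2.64, -1.75 and -1.26. Ctsc in SRF-KO with LPS stood above untreated Control, at 1298 against 500 CPM. Lgmn (212 against 1702 CPM) and Npc2 (943 against 1427 CPM) stood below it. Cholesterol and lipid genes went both ways, with 14 fallen and 26 risen of 43 (median 0.52). Pltp, the phospholipid transfer protein, and Nr1h3, the oxysterol receptor LXR alpha, had log2 fold changes of -4.38 and -3.21, and Sqle, squalene epoxidase of cholesterol synthesis, rose by 3.47. Lists with no member are given for comparison.

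All 48 interferon-stimulated genes fell (median -2.09), among them Mx1, Phf11b and Ifit2. Their summed level was 11522 to 12324 CPM in SRF-KO with LPS and 58203 to 59007 CPM in Control with LPS. In untreated Control it was 11880 to 12410 CPM, so the SRF-KO sum lay near the untreated one. Of 25 antigen presentation genes 19 fell and 5 rose (median -1.47), led by H2-Q6, H2-Q7 and H2-T22. Of 31 Fc receptor and tyrosine signalling genes 27 fell and 3 rose (median -0.53), but 15 fell and 9 rose with library totals. Integrin and adhesion genes split into 20 fallen and 19 risen of 43 (median 0.04), or 18 and 23 with library totals. Scavenger and lectin receptors split into 14 and 11 of 27 (median -0.32), or 12 and 12 with library totals. Matrix and protease genes had 14 fallen and 10 risen of 28 (median -0.11), but 11 fallen and 15 risen with library totals. Glycolysis and oxidative genes had 12 fallen and 18 risen of 36 (median 0.08), or 3 and 32 with library totals. Ribosomal protein genes had 15 fallen and 7 risen of 30 (median -0.09), or 0 and 24 with library totals.

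**Figure D5:**
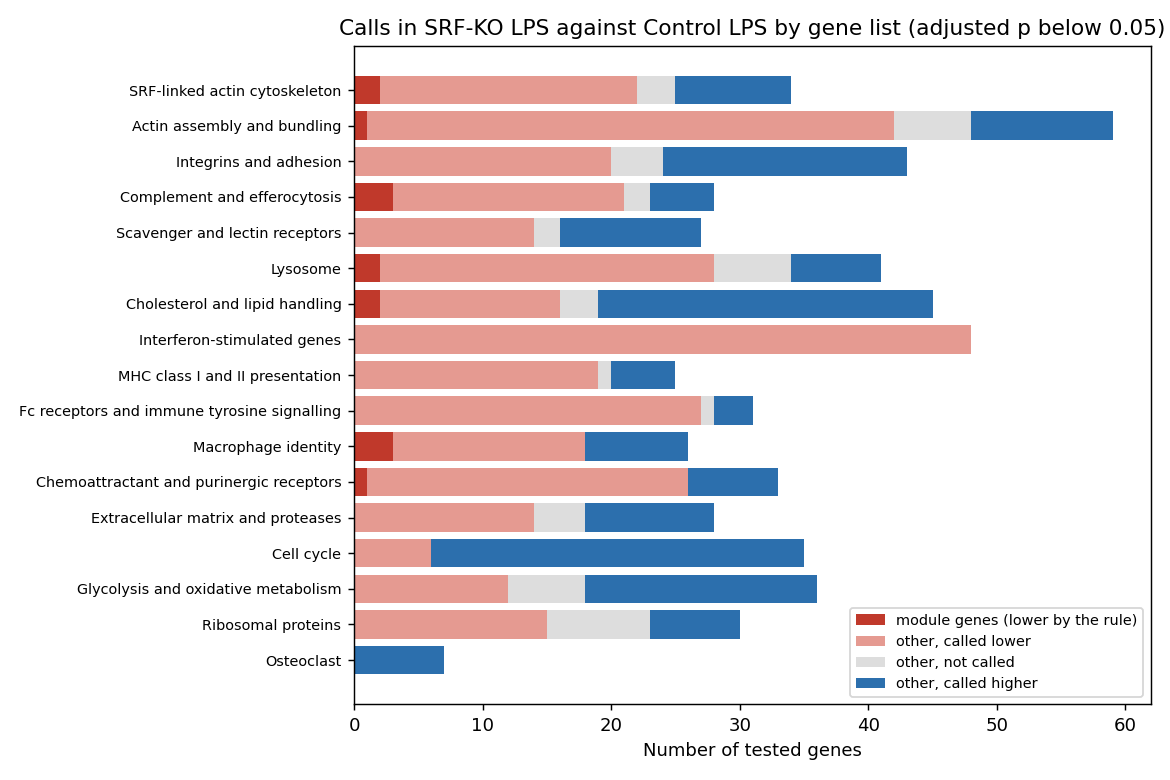
Bars count the tested genes of each list shown, from left to right the module genes, the other genes called lower in SRF-KO with LPS against Control with LPS, those not called, and those called higher. All 48 interferon-stimulated genes are called lower, and 29 of 35 cell cycle genes and 7 of 7 osteoclast markers are called higher.

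Cell cycle genes and markers of other cell types also differed between the groups. Of 35 cell cycle genes 29 rose and 6 fell in SRF-KO (median log2 fold change 2.20). Their summed level was 2877 to 2915 CPM in SRF-KO with LPS, 2376 to 2422 CPM in Control with LPS and 3711 to 3766 CPM in untreated Control. The sum is weighted to the most abundant genes, so it need not follow the median gene. Osteoclast markers rose in 7 of 7 tested cases, opposite in direction to the osteoclast receptor gene Tnfrsf11a of the module. Their summed level was 234 to 247 CPM in SRF-KO with LPS, 71.1 to 74.4 CPM in Control with LPS and 42.1 to 43.8 CPM in untreated Control. Dcstamp, needed for osteoclasts to fuse, was at 27.3 ± 2.24 CPM in SRF-KO with LPS and 1.94 ± 0.0697 CPM in Control with LPS, while Oscar had 5, 3 and 3 counts over SRF-KO with LPS, Control with LPS and untreated Control. The part of these markers in the levels of the 58 genes was not tested.

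Markers of lymphoid, granulocytic and stromal cells were only in part at 0. The T and NK cell genes Cd3d, Cd3g, Ncr1 and Nkg7, the granule genes Elane and Prtn3, the mast cell gene Fcer1a and the collagen genes Col1a1 and Col3a1 had 0 counts in all 9 libraries. Some other genes on these lists were measured and differed between the groups. S100a8 had 1055, 215 and 39 counts over SRF-KO with LPS, Control with LPS and untreated Control. Pdgfrb had 1790, 619 and 8, and Cd79b had 7, 37 and 100. These counts are not scaled for library size. In the same order mean CPM was 16.1, 5.11 and 0.644 for S100a8 and 27.4, 14.8 and 0.132 for Pdgfrb. For Cd79b it was 0.121, 0.885 and 1.66. Of 12 neutrophil and granulocyte markers 4 were tested, with 1 lower (Csf3r) and 2 higher (S100a8 and Camp) in SRF-KO. Their sum was 34.2 to 38.6 CPM in SRF-KO with LPS, 245 to 259 CPM in Control with LPS and 49.5 to 51.8 CPM in untreated Control. In both Control groups this sum was mostly that of Csf3r. Each sum given here covers only the tested genes of its list. Of 7 mast cell and basophil markers 1 was tested, Hdc, which was lower. Hdc had 116 to 127 CPM in SRF-KO with LPS, 193 to 213 CPM in Control with LPS and 0.718 to 1.39 CPM in untreated Control. Of 9 T and NK cell markers 2 were tested, with Il7r higher and Cd4 lower. These 2 genes summed to 75.9 to 79.1 CPM in SRF-KO with LPS, 38.1 to 40.0 CPM in Control with LPS and 172 to 188 CPM in untreated Control. Stromal and endothelial markers, 5 of 10 tested with 3 lower and 2 higher, summed to 37.1 to 40.3 CPM in SRF-KO with LPS, 75.8 to 86.5 CPM in Control with LPS and 18.4 to 21.6 CPM in untreated Control. Of 8 erythroid and megakaryocyte markers 1 was tested, Pf4, which was lower. Pf4 had 93.8 to 96.2 CPM in SRF-KO with LPS, 166 to 178 CPM in Control with LPS and 117 to 130.2 CPM in untreated Control. Dendritic cell markers, 2 of 10 tested with 1 higher, summed to at most 11.6 CPM in any library. Cd79b, the 1 tested B cell marker of 7, was lower and had at most 1.93 CPM. The part of these markers in the levels of the 58 genes was not tested.

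The members lie on 18 of the 19 autosomes, with 0 on chromosome 16 and at most 6 on any. Of the 5 on chromosome 17, which carries Srf, the nearest, Aif1, lies 11.4 Mb from it. An exon of 8 members overlaps one of another tested gene, on the opposite strand for Coro1a, Ctsb, Glipr1, Nr2f6, Rap2b, Vrk2 and AI413582 and on the same strand for Phyhd1, and the strand setting of the counting is not given in the sources used here. The gene opposite AI413582, Hmga1, was itself lower in SRF-KO (21.9 against 142 CPM in Control with LPS), and that opposite Ctsb, Fdft1, was higher (64.4 against 14.8 CPM). Reads of these pairs could not be told apart with certainty.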

How the data were processed

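The RNA libraries followed the TruSeq stranded method, as the labels' protocols state. Each deposited file holds raw read counts per Ensembl gene for 1 library, with no normalization by the authors, per the file headers. Tools listed in the submitters' processing notes are STAR 2.5.4b, featureCounts, edgeR, Trimmomatic and bcl2fastq 2.19, with the build GRCm38 and no options. Sample titles gave the groups and replicate numbers. Symbols and positions came from GENCODE mouse release 21 (GRCm38), with no position for 233 of 22524 genes.

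Genes passing filterByExpr by group (11560) were scaled by TMM in edgeR 4.0.16 (R 4.3.3), and all 9 libraries entered 1 quasi-likelihood fit (robust glmQLFit, glmQLFTest) with group as its term. Calls are at a Benjamini-Hochberg adjusted p below 0.05. Alternatives were library totals, other size factors, no low-count filter, a replicate block, DESeq2 1.42.0, each library left out and other thresholds. The tests and the rule were first tested on simulated data. The module genes, their roles, the motifs and the gene lists were chosen with earlier results of these data known. One gene that meets the rule and some results on the lists are not reported here.

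Named genes were the 12 members with the smallest ratio, the 12 with the highest Control level with LPS, members on lists, up to 3 per role, the threshold neighbours, and up to 3 other genes per list by smallest p. The other members and non-members named were chosen after their values were seen. Replicate pairs all differed beyond counting noise (chi-square per degree of freedom 1.75 to 3.95). P-values measure the spread between these libraries, which may be technical. Library totals of 15321839 to 24912173 counts limit the precision of genes near 1 CPM.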

Additional observations from a re-analysis of the deposited data

How the results depend on the processing

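All 58 genes were lower in SRF-KO, and called lower, under library totals, the replicate block and each of 9 fits without 1 library. The rule chose them by this comparison in the same libraries, so nothing is read from these calls. Of all 11560 tested genes, 4384 were called lower by TMM and 2434 by library totals. Membership depended on the thresholds. A ratio of at most 0.5 gave 96 genes, at most 0.3 gave 27, and a Control range from 0.9 to 1.1 gave 32. Without a low-count filter the rule found 59 genes, of which 57 are shared with the 58, and Lima1 was lost. Leaving out 1 library gave 57 to 61 genes, and at least 54 of the 58 were found each time. With library totals 7059 genes were higher and 2434 lower in SRF-KO, against 4521 and 4384 by TMM, and 2428 were higher and 7835 lower with LPS, against 4722 and 4721. A requirement of at most 0.4 against untreated Control, chosen after seeing the data as was the run with X and Y genes, left 48 of the 58. DESeq2 called 8499 genes in the SRF-KO comparison and edgeR 8905. With the replicate block 8919 were called. Same-numbered libraries correlated at -0.0746 to 0.0971 in their deviations from the group means, so no strong shared replicate effect was seen. These values cannot tell whether same-numbered libraries came from a common source. Patl1, not called by TMM, turned to 0.33 and was called higher with library totals, and without 1 library it ran from -0.0827 to 0.0168, above 0 only without Control LPS replicate 3. The cause of these changes was not tested. Genes near 1 CPM in SRF-KO, such as Lima1, rest on few reads there.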
